A study of Mus musculus with 26 samples.

Results

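Tight junctions are the outermost cell-cell contacts of epithelia and endothelia, and 8 of their genes were followed here through the mouse choroid and RPE. The genes were 6 claudins (Cldn1, Cldn3, Cldn5, Cldn11, Cldn12 and Cldn19), occludin (Ocln) and the scaffold gene Tjp1, which encodes ZO-1. They were chosen by name, with earlier results of these data known, and all 8 had a row among the 16426 genes of both scRNAseq libraries and in both bulk tables of whole RPE/choroid and of cultured GLI1+ cells. In single cells, the UMIs of each gene (unique molecular identifiers, 1 for each captured transcript) were summed over the cells of each of 13 clusters and expressed per 10,000 UMIs of that cluster. In bulk, the value used for each gene was the average FPKM (fragments mapped to a gene, scaled to its length and to the depth of the library) that the authors gave for a group.

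The single cells came from the RPE and choroid of 3-month-old B6129PF1/J and C57BL/6J mice. Each strain was 1 library, pooled from 1 male and 1 female eye, and the cells were sorted as nucleated and alive before capture. The first bulk experiment compared RPE/choroid of 3 Ihh+/+ with that of 3 Ihh iΔEC/iΔEC mice, 6 months old and on C57BL/6J. Both groups carried Cdh5-PAC-CreERT2, a tamoxifen-inducible Cre driven by the promoter of the endothelial gene Cdh5, and both were treated with tamoxifen 12 weeks before. The second compared cultured GLI1+ cells, given vehicle (DMSO) or 100 nM SAG, an agonist of the Hedgehog signal transducer Smoothened, for 24 h, with 3 cultures a group. These cells were sorted from pooled choroids of female Gli1GFP/+ mice, labeled SWR/J, and expanded in culture. A further table gave average FPKM for freshly sorted endothelial cells (ECs) of choroid, neural retina, lung, liver and heart of 1-month-old B6129PF1/J mice. It listed signature genes only.

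Claudins span the membrane 4 times by their textbook topology, and their extracellular loops meet those of the neighboring cell to set which ions and solutes pass between cells. Occludin is a second membrane protein of the same contact, and ZO-1, the product of Tjp1, binds claudins from the inside and ties them to actin. In the eye, the tight junctions of the RPE, the pigmented epithelium under the photoreceptors, form the outer blood-retinal barrier, whereas the capillaries of the choroid beneath it are fenestrated and leaky. Claudins also seal myelin, where Cldn11 is known from oligodendrocytes and Cldn19 from Schwann cells.

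The 6 claudins share a signature in the first extracellular loop, and the reference sequence that encodes it is shown for 5 of them to make clear which of these genes resemble each other. The lines below run 5′ to 3′ on the coding strand and are GENCODE M21 transcript sequence on GRCm38. Capitals mark the codons of the tryptophan, of the glycine-leucine-tryptophan triplet and of the pair of cysteines that define the signature.
Cldn1: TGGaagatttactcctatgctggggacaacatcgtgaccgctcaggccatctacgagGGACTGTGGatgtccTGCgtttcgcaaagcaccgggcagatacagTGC
Cldn3: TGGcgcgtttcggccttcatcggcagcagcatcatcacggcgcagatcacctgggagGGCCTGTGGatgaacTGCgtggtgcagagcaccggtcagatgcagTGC
Cldn5: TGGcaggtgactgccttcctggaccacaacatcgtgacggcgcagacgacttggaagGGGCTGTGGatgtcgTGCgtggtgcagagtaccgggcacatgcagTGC
Cldn11: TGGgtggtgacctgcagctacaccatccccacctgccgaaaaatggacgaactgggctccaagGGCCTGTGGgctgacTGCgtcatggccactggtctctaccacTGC
Cldn12: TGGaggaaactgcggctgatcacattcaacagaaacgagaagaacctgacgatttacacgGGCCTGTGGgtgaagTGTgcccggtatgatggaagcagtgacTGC

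All 5 stretches are coding exon sequence. They lie in exon 1 of 4 of Cldn1 (chr16:26371435-26371539, minus strand), in the single exons of Cldn3 (chr5:134986529-134986633, plus) and Cldn5 (chr16:18777083-18777187, plus), in exon 1 of 3 of Cldn11 (chr3:31150237-31150344, plus) and in exon 4 of 4 of Cldn12 (chr5:5508225-5508329, minus). Over the 35 codons, Cldn3 and Cldn5 encode the same residue at 24, with 77.1% of bases identical, and Cldn1 shares 20 residues with each of them. Cldn12 has 19 codons between the tryptophan and the triplet where Cldn1, Cldn3 and Cldn5 have 18. Codons were compared in order without a gap, so its triplet and first cysteine were not set against theirs. The 4 to 6 matching residues counted that way thus do not measure how alike Cldn12 and those 3 are. Cldn11, at 36 codons, has 20 there and was not aligned. A search of 21508 mouse coding sequences allowed 10 to 25 codons between the tryptophan and the triplet and 8 to 10 between the cysteines. It found the signature in 24 genes, or 0.112%. Of these, 21 are named as claudins, out of 24 claudin genes searched. Cldn10 and Cldn15 were not among the genes found. Ocln (chr13:100496507-100552718, minus, 9 exons) and Tjp1 (chr7:65296165-65527781, minus, 28 exons) do not carry the signature.

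The libraries held 3637 and 3928 cells and 17168578 and 15230413 UMIs, for B6129PF1/J and C57BL/6J in that order, which is kept below. The authors' cluster names fitted their markers: summed RPE markers were at 264 and 244 UMIs per 10,000 in cluster 1 and at most 2.85 and 4.37 elsewhere, although Best1, an RPE channel gene, was at or near 0 in both. EC, stromal and Schwann cell lists were likewise highest in their own clusters. The libraries shared 22 barcodes, and 35 and 33 cells had UMIs of both Xist and Ddx3y, genes of different sexes. Since a strain is 1 library, no test between strains was possible, and clusters, which were made from the expression of the same cells, were compared within each library without a test. Intervals in parentheses are exact 95% intervals of the counts, and they cover counting error only.

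Of the 6 claudins, 4 were concentrated in a single cell type, and it was the same in both libraries. Of all Cldn1 UMIs, 87.5% and 86.8% were in RPE, of all Cldn5 UMIs 97.6% and 97.4% were in ECs, and of all Cldn11 UMIs 97.4% and 95.1% were in stroma. Cldn19 was almost entirely in the smaller of the Schwann cell clusters. Tjp1 was in nearly every cell type, Ocln was split between ECs and RPE, Cldn12 was low throughout and Cldn3 was barely detected. The highest cluster was the same in both libraries for 6 of the 8 genes. Of all genes with 20 or more UMIs in each library this held for 47.8%. Cldn3, counted among the 6, had only 6 and 7 UMIs and was under that limit of 20, too few for its place to be read.

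**Figure D1:**
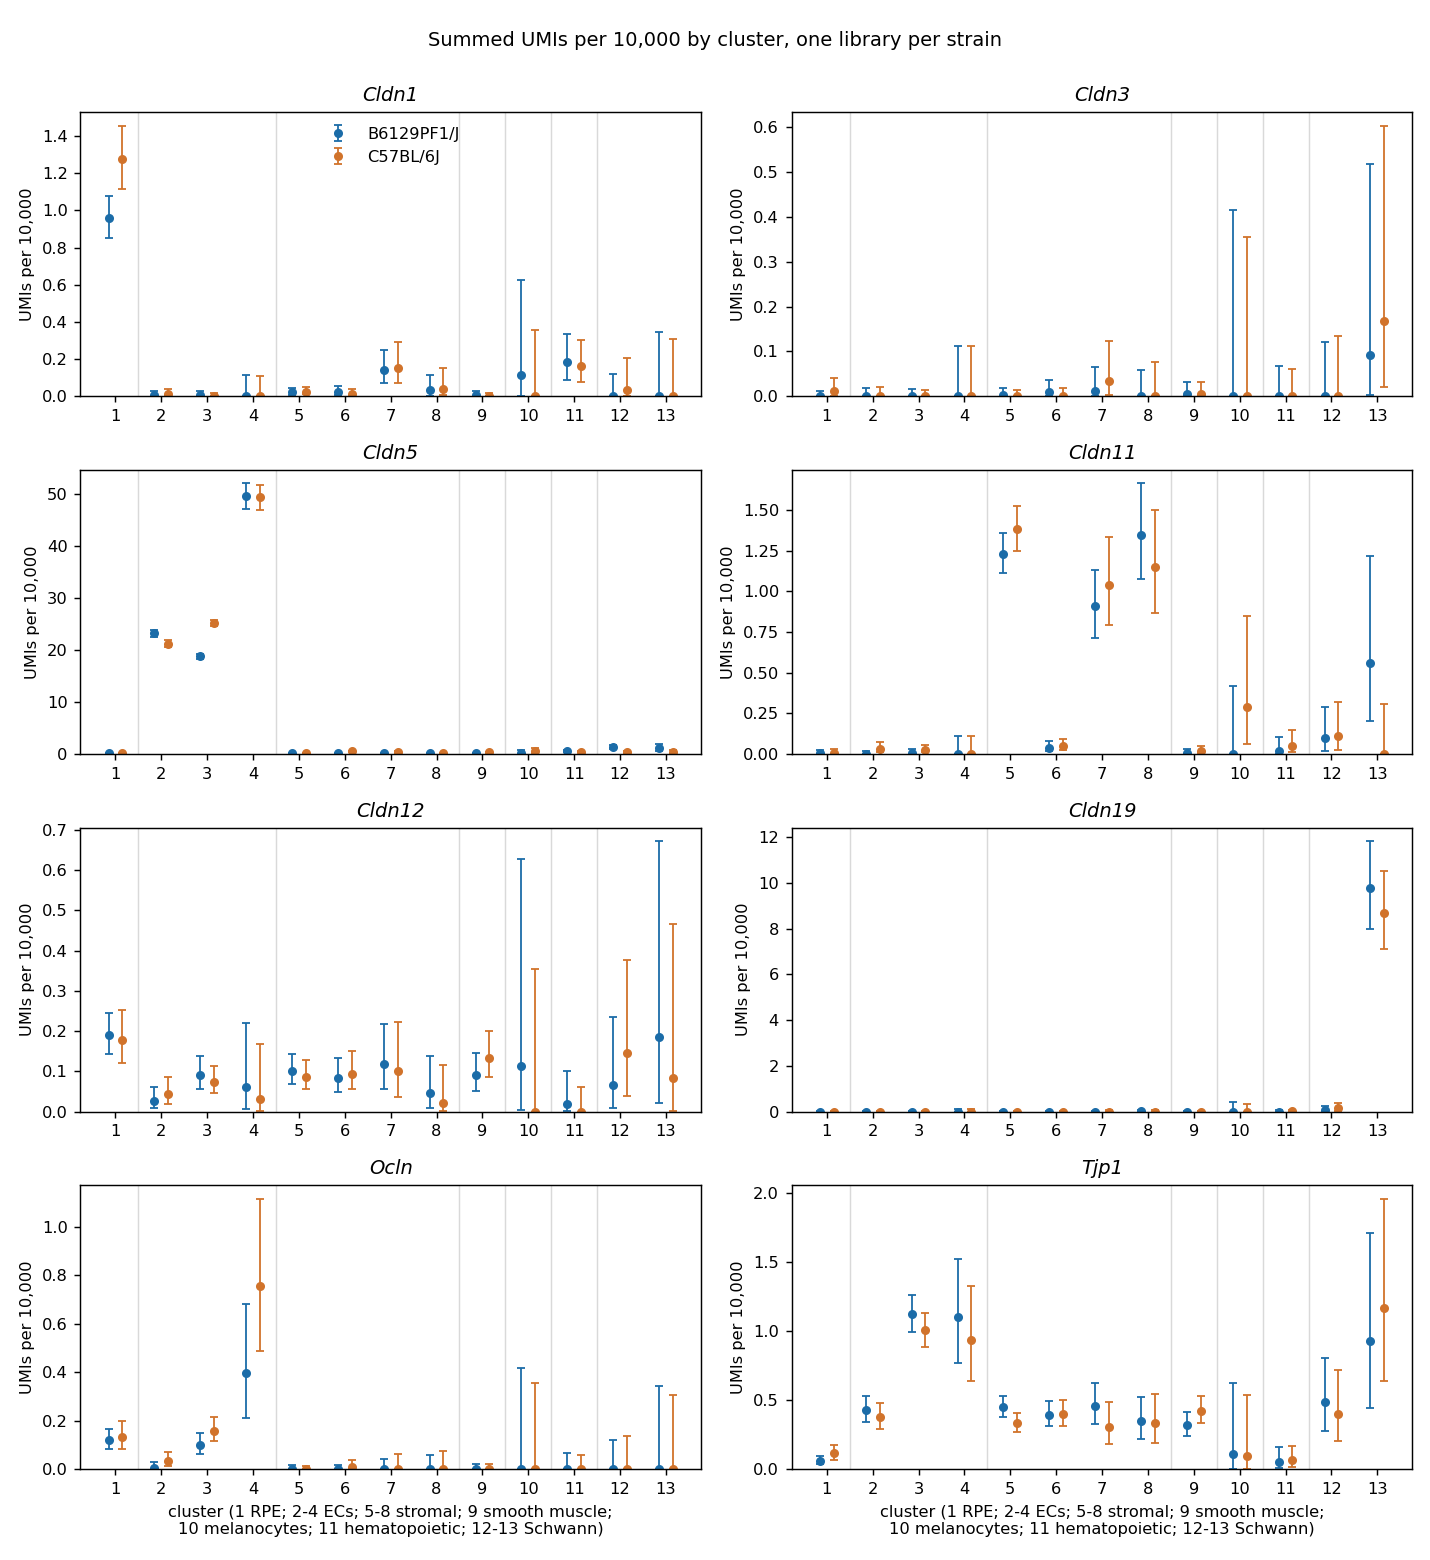
UMIs per 10,000 of each of the 8 genes (vertical axes, one panel a gene, each with its own scale from 0) in the 13 clusters (horizontal axes), for the B6129PF1/J and C57BL/6J libraries, with exact 95% counting intervals as bars. Cldn1 stands in cluster 1 (RPE), Cldn5 in clusters 2 to 4 (ECs), Cldn11 in clusters 5, 7 and 8 (stroma) and Cldn19 in cluster 13 (Schwann cells), while Tjp1 is spread over most clusters.

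Cldn1, a barrier-forming claudin of many epithelia, was the RPE claudin among the 8. Its level in RPE was 0.960 UMIs per 10,000 in B6129PF1/J (0.853 to 1.08, 288 UMIs) and 1.28 in C57BL/6J (1.11 to 1.45, 223 UMIs). UMIs of Cldn1 were found in 162 of 407 RPE cells (39.8%) and in 143 of 374 (38.2%). Smooth muscle served as background and was among the types lowest in Cldn1. There, UMIs of Cldn1 were in 1 of 373 cells and 0 of 463, where 3 cells would have made 0.648%. Its cells held a median of 4635 and 3803 UMIs. RPE cells held a median of 5263 and 3406.5 UMIs, and after every cell was thinned to 1700 UMIs the shares of RPE cells were 14.5% and 18.2%. The C57BL/6J level was 1.33 times the B6129PF1/J level in RPE (1.11 to 1.59). An interval without 1 was found for 15.7% of the genes compared between the libraries in that cluster. ECs held 3 Cldn1 UMIs in each library.

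Outside RPE, Cldn1 was low but not evenly so. In stromal cluster 7 it was at 0.141 and 0.153 UMIs per 10,000 (12 and 9 UMIs in 7 and 6 cells), which was 6.41 (2.33 to 19.2) and 6.06 (2.01 to 19.1) times its level in stromal cluster 5. Hematopoietic cells were at 0.183 and 0.165, with 10 UMIs in 8 cells in each library. At the ratio of Cldn1 to Rgr, Rpe65 and Rlbp1 in RPE, the UMIs of those RPE genes in cluster 7 would have come with 0.297 and 0.462 UMIs of Cldn1, and those in hematopoietic cells with 0.571 and 1.33. In EC clusters 2 and 3, 1 or 2 Cldn1 UMIs stood beside 1.10 to 1.61 at that ratio.

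Other claudins joined Cldn1 in RPE. Cldn2, which forms a pore for cations and water, was at 0.510 and 0.320 UMIs per 10,000 in RPE, with 97.5% of its B6129PF1/J UMIs there. Cldn10, a further pore-forming claudin, was at 0.267 and 0.315, and Cldn22 at 0.190 and 0.206. Cldn22 was also present in stromal cluster 7, at 0.153 in each library. At least 1 UMI of Cldn1, Cldn2, Cldn10 or Cldn22 was found in 249 of 407 RPE cells (61.2%) and 189 of 374 (50.5%), against 6 of 863 ECs (0.695%) and 8 of 1024 (0.781%). The claudins of this set were picked because they were highest in RPE in these same libraries. A larger share in RPE than in ECs thus followed from the choice. UMIs of 2 or more of these claudins were in 24.8% and 17.6% of RPE cells. Thinned to 1700 UMIs, 28.5% and 26.7% of RPE cells held at least 1 UMI.

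Cldn5, the main claudin of blood vessels and a component of the blood-brain barrier, ran through all 3 EC clusters at different levels. In B6129PF1/J it was at 23.2 UMIs per 10,000 in cluster 2 (22.5 to 23.9), 18.8 in cluster 3 (18.2 to 19.3) and 49.6 in cluster 4 (47.2 to 52.0). In C57BL/6J the levels were 21.2 (20.5 to 21.8), 25.1 (24.5 to 25.7) and 49.4 (47.0 to 51.8). Cluster 4 was thus the highest in both, at 2.13 (2.01 to 2.26) and 2.33 (2.20 to 2.47) times cluster 2 and at 2.64 and 1.96 times cluster 3. Cldn5 and Tjp1 were the members with 20 or more UMIs in both clusters of each library, and each was at least 2 times higher in cluster 4 than in cluster 2. This was so for 4.78% of all genes compared.

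The same order held cell by cell, with overlap. The median EC was at 20.3, 15.4 and 53.5 UMIs of Cldn5 per 10,000 in clusters 2, 3 and 4 of B6129PF1/J, and at 17.5, 22.1 and 47.1 in C57BL/6J. From the 10th to the 90th percentile of cells, cluster 2 ran from 5.93 to 44.8 and cluster 4 from 15.0 to 109 in B6129PF1/J, and from 4.47 to 42.3 and 21.3 to 82.4 in C57BL/6J. Cldn5 UMIs were in 358 of 370, 377 of 430 and 63 of 63 cells of these clusters in B6129PF1/J, and in 381 of 403, 506 of 549 and 68 of 72 in C57BL/6J. The EC clusters also differed in other vessel genes. Kdr, a receptor for VEGF, was at 16.4, 8.86 and 0.611 UMIs per 10,000 in clusters 2, 3 and 4 of B6129PF1/J and at 14.0, 6.27 and 0.907 in C57BL/6J, so that cluster 4 had the highest Cldn5 and the lowest Kdr. Cdh5, the cadherin of endothelial adherens junctions, lay between 3.76 and 4.64 in all 6 profiles.

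**Figure D2:**
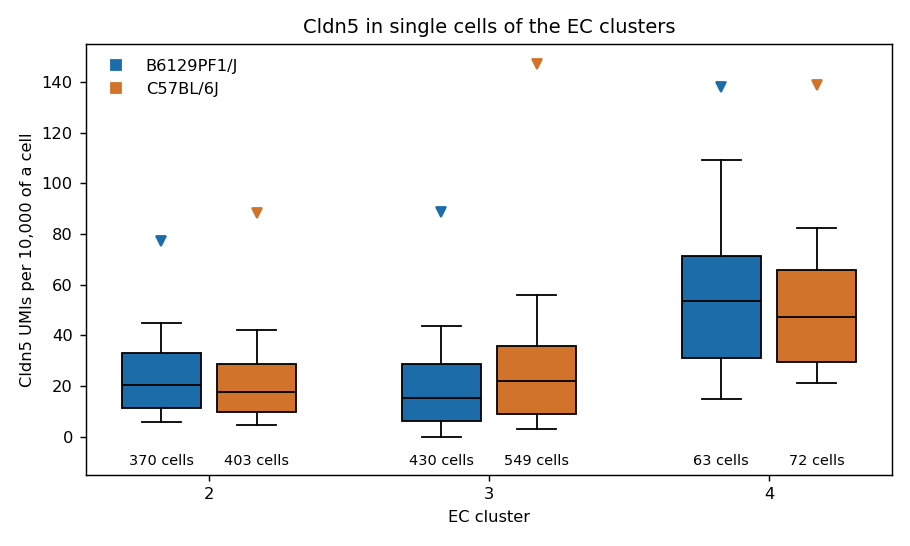
Cldn5 UMIs per 10,000 in single cells (vertical axis) of the 3 EC clusters in each library (horizontal axis), with boxes for the median and quartiles, whiskers for the 10th and 90th percentiles and triangles for the highest cell. Cluster 4 sits above clusters 2 and 3 in both libraries, while clusters 2 and 3 change order between them.

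Clusters 2 and 3 did not keep their order between the libraries. Cldn5 in cluster 3 was 0.808 times that in cluster 2 in B6129PF1/J (0.775 to 0.842) and 1.19 times in C57BL/6J (1.14 to 1.24). Between libraries, the C57BL/6J level was 1.34 times the B6129PF1/J level in cluster 3 (1.29 to 1.39), 0.911 times in cluster 2 (0.873 to 0.952) and 0.996 times in cluster 4 (0.929 to 1.07). In cluster 3, 20.0% of genes differed between the libraries beyond counting error. Over all 8 genes and all clusters with enough UMIs, 9 of 36 such comparisons had an interval without 1, of which 7 were of Cldn5. Over all genes with 20 or more UMIs this was so for 15.7% of comparisons. The 7 of Cldn5 were in EC clusters 2 and 3 and, outside ECs, in clusters 1, 6, 7, 9 and 12. Cldn5 had the most UMIs of the 8 genes, at 10831 and 12593.

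Outside ECs, Cldn5 was at 0.113 to 1.34 UMIs per 10,000 in B6129PF1/J and 0.126 to 0.542 in C57BL/6J. RPE held 34 Cldn5 UMIs in each library. At the ratio of Cldn5 to Flt1, Cdh5 and Tie1 in ECs, the UMIs of those EC genes in RPE would have come with 41.0 and 18.9. In stromal cluster 5, 50 and 55 Cldn5 UMIs stood beside 134 and 143 at that ratio. In Schwann cell cluster 12 of B6129PF1/J, 1 cell held 24 of the 41 Cldn5 UMIs, beside 39.1 at the ratio.

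Ocln, which encodes the 4-pass membrane protein occludin, was sparse, with 75 and 99 UMIs in the whole libraries. It was highest in EC cluster 4, at 0.397 UMIs per 10,000 (0.211 to 0.679, 13 UMIs in 11 of 63 cells) and 0.756 (0.489 to 1.12, 25 UMIs in 18 of 72 cells). In cluster 3 it was at 0.0995 and 0.160, so that cluster 4 was 3.99 (1.87 to 8.16) and 4.73 (2.77 to 7.93) times higher. Cluster 2 held 1 and 6 Ocln UMIs, at 0.00525 and 0.0329. RPE was at 0.120 and 0.132, with 36 UMIs in 33 cells and 23 UMIs in 22. Stroma held 1 and 2 UMIs. Smooth muscle, melanocyte, hematopoietic and Schwann cell clusters held none in either library.

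Tjp1, the scaffold, followed the EC clusters in another order. It was at 0.430 and 0.378 UMIs per 10,000 in cluster 2, at 1.12 (0.993 to 1.27) and 1.01 (0.890 to 1.13) in cluster 3 and at 1.10 (0.770 to 1.52) and 0.937 (0.637 to 1.33) in cluster 4. Cluster 3 was 2.61 (2.03 to 3.38) and 2.66 (2.04 to 3.52) times cluster 2, and cluster 4 was 2.56 (1.68 to 3.83) and 2.48 (1.57 to 3.84) times. Clusters 3 and 4 overlapped in their intervals. ECs held 49.9% and 53.0% of all Tjp1 UMIs and stroma 36.7% and 29.0%. The 4 stromal clusters lay close together, at 0.348 to 0.459 and at 0.306 to 0.400, and smooth muscle was at 0.321 and 0.424. RPE was low, at 0.0600 and 0.114, as were hematopoietic cells at 0.0548 and 0.0660. Schwann cell cluster 13 was at 0.931 (0.446 to 1.71) and 1.17 (0.639 to 1.96), and its interval overlapped those of EC clusters 3 and 4.

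Cldn11, which makes the tight junctions of central myelin and of the testis, was a stromal gene here, and it was in 3 of the 4 stromal clusters. In B6129PF1/J it was at 1.23 UMIs per 10,000 in cluster 5 (1.11 to 1.36, 391 UMIs), 0.0392 in cluster 6 (8 UMIs), 0.907 in cluster 7 (0.716 to 1.13, 77 UMIs) and 1.34 in cluster 8 (1.07 to 1.66, 85 UMIs). In C57BL/6J the levels were 1.38 (1.24 to 1.52, 382 UMIs), 0.0473 (9 UMIs), 1.04 (0.794 to 1.33, 61 UMIs) and 1.15 (55 UMIs). Cluster 7 was somewhat below cluster 5, at 0.736 (0.569 to 0.942) and 0.753 (0.565 to 0.988) of its level. Cluster 8 was 1.48 (1.08 to 2.05) and 1.11 (0.756 to 1.62) times cluster 7, and its ratio to cluster 5 had an interval that included 1 in both libraries. Cluster 6 stood far lower, at 0.0318 (0.0136 to 0.0633) and 0.0343 (0.0156 to 0.0658) of cluster 5. A level at least 2 times lower in cluster 6 in both libraries was found for 6.37% of genes.

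Cells with a Cldn11 UMI made up 246 of 848 (29.0%) and 230 of 839 (27.4%) of cluster 5, but 8 of 541 and 4 of 603 of cluster 6. RPE was used as background and was among the types lowest in Cldn11. Cells with a Cldn11 UMI were 2 of 407 (0.491%) and 1 of 374 (0.267%) there. The median RPE cell held 5263 and 3406.5 UMIs, against 3516.5 and 3037 in cluster 5. Cluster 6 was lower in other stromal genes too. Dcn, an extracellular matrix proteoglycan, was at 12.0 and 10.3 UMIs per 10,000 against 51.2 and 45.2 in cluster 5, and Pdgfra, a receptor of fibroblasts, at 0.137 and 0.0894 against 2.00 and 1.88. Pdgfrb, the related receptor known from pericytes, was the other way round, at 6.90 and 5.90 in cluster 6 against 3.25 and 2.67 in cluster 5. At the ratio of Cldn11 to Dcn, Lum and Pdgfra in the other stromal clusters, the UMIs of those genes in cluster 6 would have come with 35.7 and 31.7 UMIs of Cldn11, where 8 and 9 were found. ECs held 2 and 13 Cldn11 UMIs in all, and cluster 4 none. Schwann cell cluster 13 held 6 Cldn11 UMIs in 2 of its B6129PF1/J cells and none in C57BL/6J.

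Cldn19, known from the myelin of peripheral nerve, was a gene of Schwann cell cluster 13. Of its 109 UMIs in each library, 105 and 104 were in that cluster, at 9.77 UMIs per 10,000 (7.99 to 11.8) and 8.68 (7.09 to 10.5). UMIs were in 28 of 30 cells and 39 of 46 cells. The other Schwann cell cluster, 12, held 2 and 4 UMIs, at 0.0654 and 0.147, so that cluster 13 was 149 times (40.4 to 1250) and 59.2 times (22.4 to 221) higher. A difference of 2 times or more in that direction was found for 5.50% of genes compared. Cluster 13 carried myelin genes: Mbp, which encodes myelin basic protein, was at 154 and 152 UMIs per 10,000 in cluster 13 against 18.1 and 17.4 in cluster 12, and Ncmap, a protein of noncompact myelin, at 26.4 and 24.7 against 0 and 0.220. Cdh19, a cadherin of the Schwann cell lineage, was at 0.372 and 0.0835 against 5.00 and 3.78. In RPE, where Cldn19 is known for its part in the barrier, UMIs were in 0 of 407 and 0 of 374 cells. Taking 3 cells as the limit of a count of 0, this allows up to 0.737% and 0.802% of cells with a UMI, and sets no limit on cells that express the gene.

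Cldn12 and Cldn3 were at the limit of these libraries. Cldn12 had 170 and 138 UMIs in all. Its level in RPE was 0.190 UMIs per 10,000 (0.144 to 0.246, 57 UMIs in 52 cells) and 0.177 (0.120 to 0.252, 31 UMIs in 28 cells), and no other cluster was above 0.186 or 0.147. The 0.186 belonged to cluster 13 and rested on 2 UMIs. Without cells that held 2 markers of another cell type, which removed 322 of 407 RPE cells, the B6129PF1/J level in RPE was 0.0656, and cluster 13 was then the highest. It was also the highest in B6129PF1/J as a mean over cells, after thinning, and without cells with UMIs of both Xist and Ddx3y. The markers of other types included the melanocyte genes Dct and Tyrp1, found in 92.4% and 74.4% of B6129PF1/J RPE cells. The marker filter thus did not single out mixed cells. Cldn12 in EC cluster 2 was at 0.0262 and 0.0438, and hematopoietic cells held 1 Cldn12 UMI and none. Cldn3 had 6 and 7 UMIs in the whole libraries. RPE held none in 407 cells and 2 UMIs in C57BL/6J.

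Of the 25 further tight junction genes with a row in these libraries, 20 had 20 or more UMIs in each. In the tricellular group, proteins that seal corners where 3 cells meet, Lsr differed between the EC clusters, at 0.0315, 0.535 and 1.89 UMIs per 10,000 in clusters 2, 3 and 4 of B6129PF1/J, and at 0.00548, 0.679 and 1.90 in C57BL/6J. Ildr2, of the same family, was highest in RPE, at 0.410 and 0.400. Among the JAM family of immunoglobulin-type adhesion molecules, 3 of 5 genes were highest in ECs. Esam was at 15.2, 8.75 and 8.13 in clusters 2, 3 and 4 of B6129PF1/J and at 15.0, 9.22 and 8.34 in C57BL/6J, the reverse of Lsr, and Jam2 was at 0.404, 1.22 and 1.80 and at 0.504, 1.27 and 1.54. F11r, which encodes JAM-A, varied less, from 1.86 to 2.75. Cxadr, the receptor of coxsackieviruses and adenoviruses, was highest in RPE, at 0.313 and 0.395. Jam3 was highest in Schwann cell cluster 13, at 4.56 and 4.67.

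The scaffolds on the inner face of the junction had no shared cell type. Among scaffold genes other than Tjp1 with enough UMIs, Inadl and Pard6b were highest in RPE, Cgnl1 and Magi3 in ECs, Magi1 in stroma and Mpdz in Schwann cells in both libraries, while Mpp5 and Pard3 had a different highest cell type in each. Cgnl1, which encodes paracingulin, was at 1.56 and 1.69 UMIs per 10,000 in EC cluster 4 and at 1.04 and 0.888 in stromal cluster 5. Pard6b, a subunit of the PAR polarity complex, was at 0.267 and 0.229 in RPE. Cldn15, the remaining claudin with enough UMIs, did not keep its highest cell type either.

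**Figure D3:**
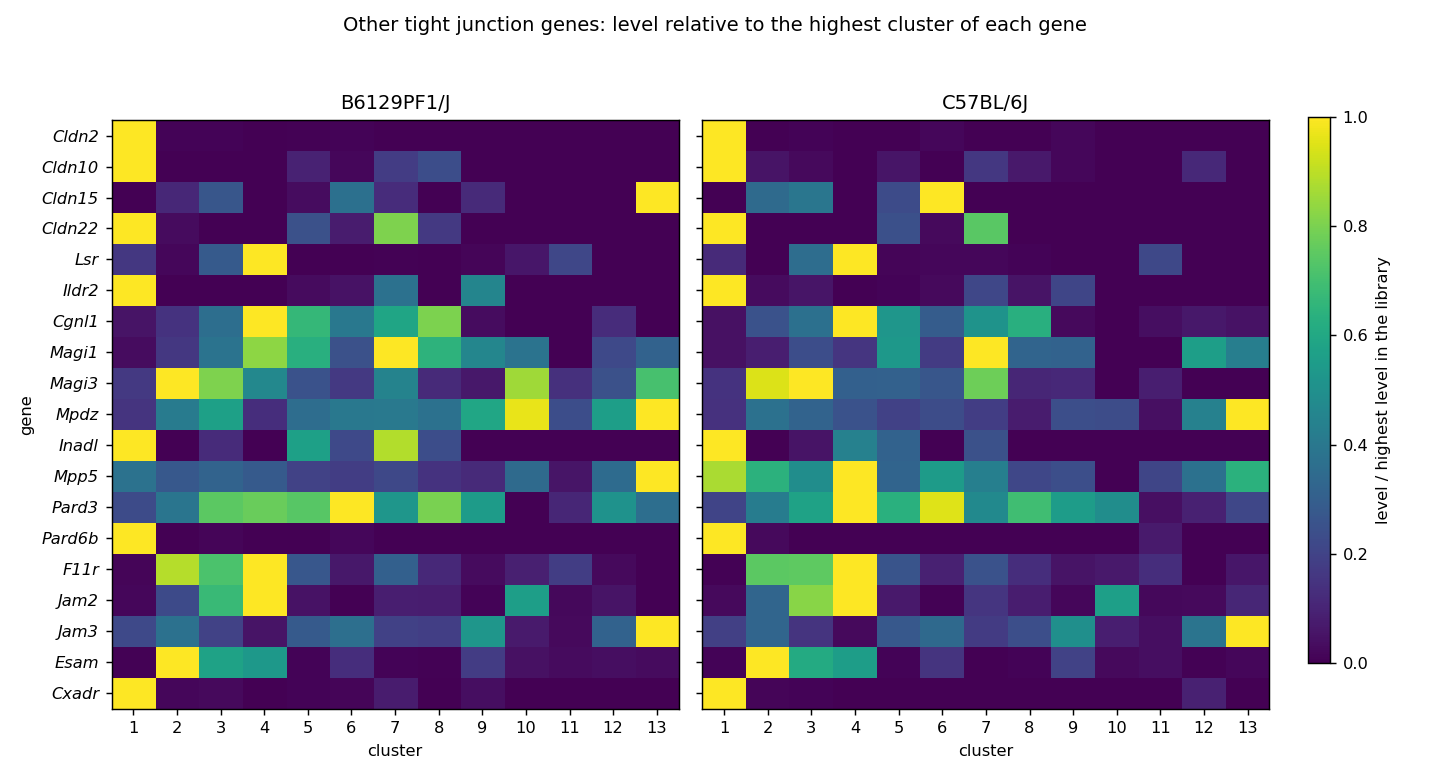
Heat map of 19 further tight junction genes with 20 or more UMIs in each library (rows) over the 13 clusters of each library (columns), colored by the level in UMIs per 10,000 divided by the gene's highest level in that library. Cldn2, Cldn10, Cldn22, Ildr2 and Cxadr reach the top of the color scale in RPE, Lsr in EC cluster 4, Esam in EC cluster 2 and Jam3 in Schwann cell cluster 13.

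The genes whose levels ran most like each member were found over the 26 profiles, 13 clusters in each of 2 libraries, from 11193 genes with 50 or more UMIs in each. The profiles share libraries and depth, so that Pearson's r on the log2 scale is a description. Cldn5 was most like Dll4 (r = 0.98), a Notch ligand of endothelium, and Podxl (0.98), a sialomucin of the vessel lumen. Ocln was most like Eps8l2 (0.92) and Bmx (0.91), a kinase known from arterial endothelium. Cldn11 ran with Crym (0.95), which encodes a thyroid hormone-binding protein, and with Pdgfra (0.92). Cldn19 ran with Ncmap (0.99) and Mag (0.99), a glycoprotein of myelin, and Cldn1 with Slc13a3 (0.93), a transporter of dicarboxylates, and Tuft1 (0.92). Cldn12 reached 0.77 at most, with Tmem209, and Tjp1 0.94, with Zmym5. Cldn3 was too low to be placed. Among the members themselves, Cldn5 and Ocln had r = 0.67, and Cldn1 and Tjp1 had r = -0.65.

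The deletion of Ihh from ECs asked which RPE/choroid genes depend on endothelial Indian hedgehog, a ligand that binds Ptch1 and switches on Gli1 in receiving cells. The table held the average of 3 mice a group and no value per mouse, so that no error or test was computed here, and ratios are those of averages. Ihh itself averaged 1.53 FPKM in Ihh+/+ and 0.454 in Ihh iΔEC/iΔEC, Gli1 9.40 and 3.15, and Ptch1 7.69 and 4.98. In such bulk tissue, fewer cells of a type and less RNA per cell cannot be told apart.

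Cldn11, the stromal claudin, was the one member more than 2 times lower after deletion. It averaged 10.2 FPKM in Ihh+/+ and 4.18 in Ihh iΔEC/iΔEC, a ratio of 0.409 or a log2 ratio of -1.29. Cldn3 was past 2 times in the other direction, at 0.189 and 1.11 FPKM, a ratio of 5.84, but it was not past 2 times once a pseudocount of 1 FPKM was added, when the ratio was 1.77. These were 2 of the 7 members that reached 1 FPKM in the higher group. Of all 11411 genes at that level, 1.85% were past 2 times, 1.10% higher and 0.745% lower. The median log2 ratio was 0.09 over the 7 members and -0.04 over all genes.

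The remaining members differed by less. Cldn1 averaged 38.5 FPKM in Ihh+/+ and 52.0 in Ihh iΔEC/iΔEC, a ratio of 1.35. Cldn5 averaged 35.0 and 29.5, a ratio of 0.843, and Cldn12 averaged 7.21 and 8.29, a ratio of 1.15. Ocln averaged 1.96 and 2.09 and Tjp1 6.46 and 6.12, within 1.07 times in either direction. Cldn19 averaged 0.197 and 0.972, a ratio of 4.94, but stayed under 1 FPKM in both groups.

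**Figure D4:**
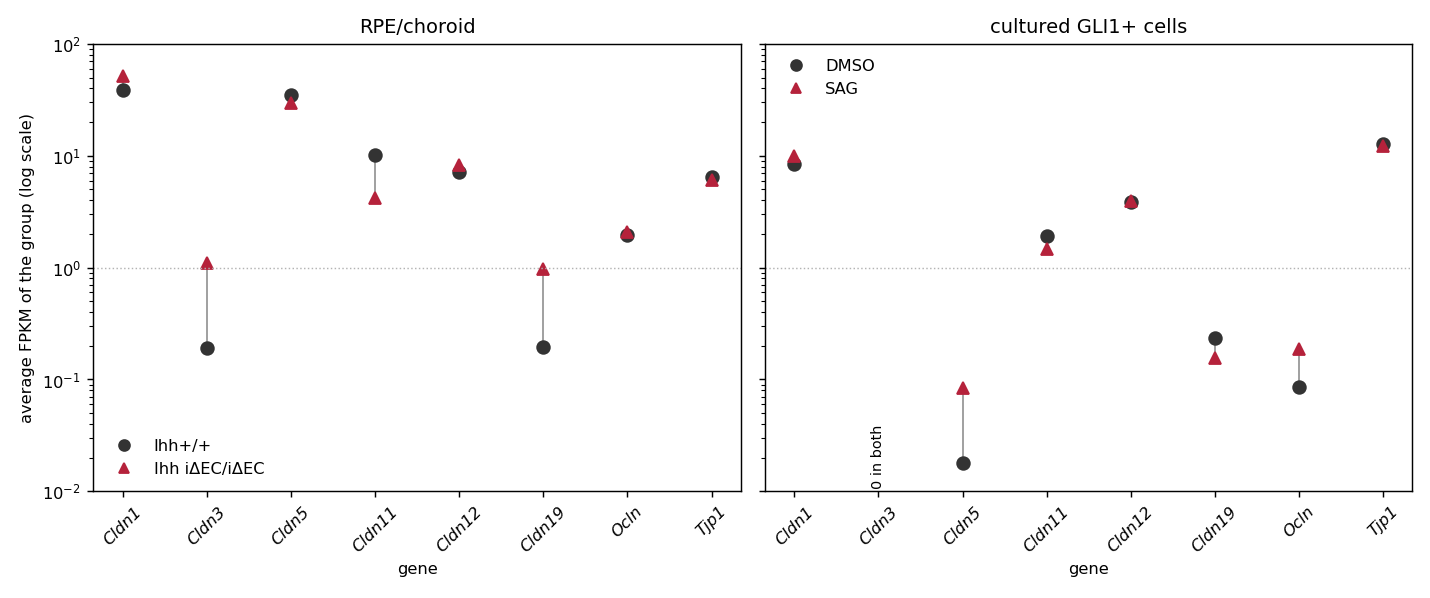
Average FPKM of the 8 genes (vertical axis, log scale, dotted line at 1 FPKM) in the groups of the Ihh deletion and of the SAG treatment (panels), with 1 point for each group average and no error, since the tables hold no value per replicate. Cldn11 stands at 10.2 and 4.18 FPKM in the Ihh groups and Cldn3 stands at 0.189 and 1.11, while the members above 1 FPKM in cultured GLI1+ cells lie close together in pairs.

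Markers of the cell types differed in the same table, and their part in these differences was not tested. All 5 stromal markers had lower averages in Ihh iΔEC/iΔEC, from Lum at 74.0 and 38.7 FPKM (ratio 0.524) to Pdgfrb at a ratio of 0.832, and the ratio of Cldn11 lay below all 5. Crym, the gene most like Cldn11 in single cells, averaged 6.50 and 2.44 FPKM, a ratio of 0.375, while Pdgfra averaged 11.1 and 7.25 and Mmp2 19.3 and 13.3. The 4 RPE markers above 1 FPKM had a median log2 ratio of 0.30, among them Rpe65 at 682 and 914, beside 0.43 for Cldn1. The 5 EC markers had a median log2 ratio of -0.19, beside -0.25 for Cldn5. All 4 photoreceptor genes were past 2 times lower, among them Gnat1, the rod transducin gene, at 25.5 and 10.8. All 4 melanocyte markers were lower too, at ratios of 0.544 to 0.701.

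The other claudins stood out on the higher side. Of 6 that reached 1 FPKM, 2 were past 2 times higher, Cldn4 at 0.0127 and 3.27 FPKM and Cldn7 at 1.21 and 3.36. Both are claudins of surface epithelia and were singled out after their values were seen. Krt14, a keratin of such epithelia, averaged 0.00667 and 4.28 in the same table, and Wfdc2, an epithelial secreted protein, 20.6 and 30.1. In single cells Wfdc2 was highest in RPE, at 1.89 UMIs per 10,000 in B6129PF1/J and 1.40 in C57BL/6J. The part of surface epithelia in the values of Cldn3, Cldn4 and Cldn7 was not tested. The genes most like Cldn19 in single cells did not share its difference, since Ncmap averaged 0.431 and 0.320 and Mag 0.507 and 0.539. Cldn2 averaged 13.9 and 17.9 and Cldn10 2.82 and 3.84. None of 11 scaffold genes, 5 JAM family genes or 3 tricellular and MARVEL genes was past 2 times, with median log2 ratios of 0.02, -0.13 and 0.18.

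**Figure D5:**
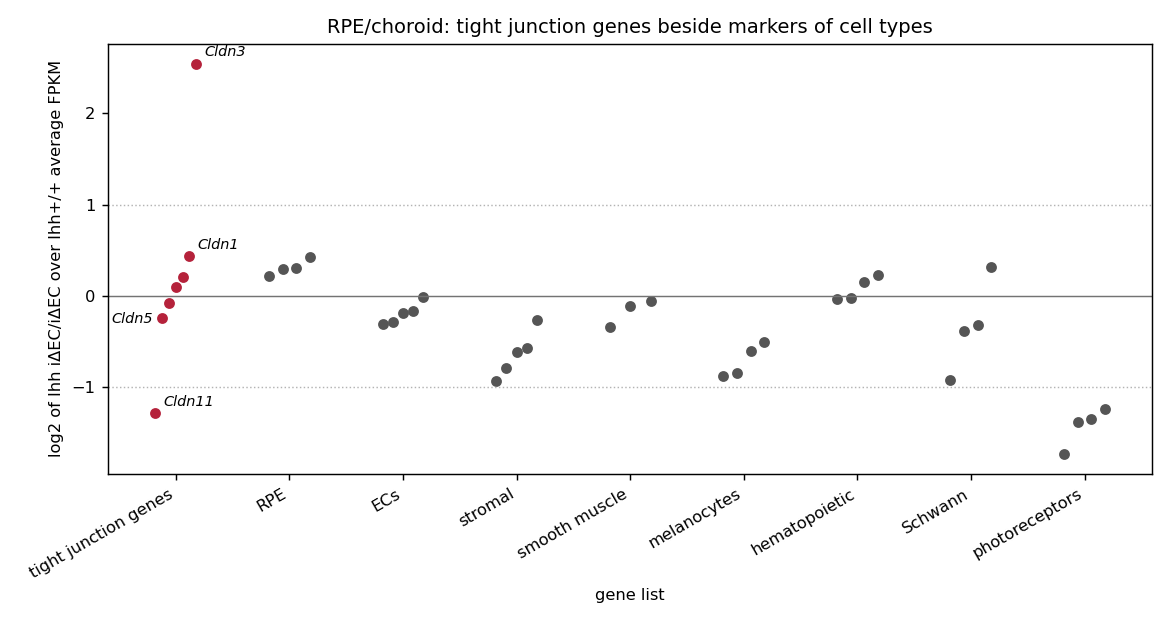
Log2 ratio of average FPKM in Ihh iΔEC/iΔEC over Ihh+/+ RPE/choroid (vertical axis, dotted lines at -1 and 1) for the 7 members and the cell type markers (horizontal axis, by list) that reached 1 FPKM in either group, with 1 point for each gene. Krt14, Wfdc2 and the oligodendrocyte gene Ermn also reached 1 FPKM and are not drawn. Cldn11 lies at -1.29, below all 5 stromal markers, and the 4 photoreceptor genes lie below -1.

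Treatment of cultured GLI1+ cells with SAG asked which genes follow Hedgehog activation in those cells. Gli1 averaged 0.0280 FPKM with DMSO and 3.65 with SAG, and Ptch1 1.13 and 10.1. None of the 4 members that reached 1 FPKM was past 2 times, against 1.57% of all 10325 genes at that level, 0.387% higher and 1.18% lower. Cldn11 averaged 1.94 and 1.46, a ratio of 0.753, and Cldn1 averaged 8.41 and 9.92, a ratio of 1.18. Cldn12 averaged 3.87 and 3.96 and Tjp1 12.7 and 12.3. The median log2 ratio was -0.01 over these 4 and 0.06 over all genes. Cldn5 (0.0180 and 0.0837), Cldn19 (0.234 and 0.155) and Ocln (0.0857 and 0.186) stayed under 1 FPKM, and Cldn3 was listed at 0 in both groups.

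Cldn1 thus had a higher FPKM than Cldn11 in the cultured cells, in both groups. In the stromal clusters of the 2 libraries, Cldn1 had 26 and 20 UMIs and Cldn11 had 561 and 507. All EC, melanocyte and hematopoietic markers were under 1 FPKM in the cultures, while Dcn averaged 842 and 836. Of RPE markers, Rgr averaged 2.01 and 2.54 and Rpe65 0.496 and 0.806. Among the other tight junction genes, Cgnl1 averaged 8.20 and 10.0 FPKM, Jam3 14.8 and 15.5 and Pard3 7.44 and 7.82, and Jam2, at 2.70 and 1.77, was the furthest from 1 among those.

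Cldn11 was the member with a row among the 99 signature genes of the sorted ECs. The table put it at 1.55 FPKM for the choroid, 0.222 for the heart, 0.141 for the lung and 0.0360 for the neural retina, and listed it at 0 for the liver. The choroidal average was 7.00 times the highest other and ranked at position 84 of the 99 by level. The authors chose the 99 genes for being much higher in choroidal ECs than in each other EC type. A high ratio was thus set by the list. In the same choroidal column Rpe65 stood at 21.8 FPKM and Rgr at 50.9, both genes of RPE. In single cells, the 863 and 1024 ECs held 2 and 13 of the 576 and 533 Cldn11 UMIs. RPE held 2 and 1 of them, and stroma 561 and 507. The part of RNA from other cell types in the Cldn11 value of the sorted ECs was not tested.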

How the data were processed

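The deposited scRNAseq tables held counts of UMIs per gene and cell, which the authors made with Cell Ranger on mm10 and filtered with Seurat 2.1, together with cluster and cell type of each cell. The deposited metadata also gave each cell's fraction of mitochondrial UMIs, which was not used here. The bulk tables held average FPKM per group, which the authors computed with Cufflinks 2.0.2 after STAR 2.4.0f1 alignment, and their own fold changes and p-values from DESeq2, which were not used.

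Here, counts were summed per cluster and library and given per 10,000 UMIs with exact Poisson 95% intervals. Ratios have exact conditional binomial intervals and shares exact Clopper-Pearson intervals. Library totals were 17168578 and 15230413 UMIs, with medians of 3881 and 3174.5 UMIs per cell, which sets the precision. Doublets were not called. With 1 library per strain no test was made, and since the bulk tables held no values per replicate, the limma test planned for single libraries could not be run. For ratios of averages a gene needed 1 FPKM in the higher group, and no pseudocount was added.

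Further genes of the lists of claudins, tricellular and MARVEL proteins, scaffolds and JAM family were named with values if they had 20 or more UMIs in each library and were among the 3 highest of their list in RPE, ECs or stroma. The 3 genes most like a member were taken by Pearson's r on log2(UMIs per 10,000 + 0.1), and Ihh, Gli1 and Ptch1 were named as checks of the labels. Marker genes are named beside the results they touch. The choroid column of the EC table matched no sample of the series and is given as the authors' average. The members and lists were chosen with earlier results of these data known. Genes without a row were not analysed here, and a few items are not reported here. Scripts were tested on simulated data. Alternatives were another scaling per cell, thinning to 1700 UMIs, leaving out cells with UMIs of Xist and Ddx3y or with 2 markers of another cell type, no minimum FPKM, pseudocounts of 0.1 and 1 and a ratio of 1.5. Python 3.11.15, numpy 2.4.6, pandas 2.3.3, scipy 1.17.1 and matplotlib 3.10.9 were used.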

Additional observations from a re-analysis of the deposited data

Results flagged for a closer look

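The order of Cldn5 between EC clusters 2 and 3 was opposite in the 2 libraries: the cluster 3 level was 0.808 times the cluster 2 level in B6129PF1/J and 1.19 times in C57BL/6J. The difference was not tested, since each strain is 1 library.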

How the results depend on the processing

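Of the values that answer a comparison, 21 stayed within their error or within 1.5 times under an alternative and 4 moved, and among single genes 114 stayed and 11 moved. None reversed. The ratio of Cldn5 between clusters 4 and 2 in B6129PF1/J was 2.13 as reported, 2.47 as a mean over cells and 2.47 after thinning to 1700 UMIs. Members past 2 times after Ihh deletion numbered 2 as reported, 1 (Cldn11) with a pseudocount of 1, and 3 without a minimum FPKM, when Cldn19 was added. Members past 2 times with SAG numbered 0 as reported and 2 (Cldn5 and Ocln) without a minimum. Over all genes those past 2 times numbered 211 for Ihh, 106 with a pseudocount of 1, 2157 without a minimum and 537 at 1.5 times, and 162, 105, 2240 and 396 for SAG. The highest cluster was the same in both libraries for 6 members as reported and for 5 under each alternative, one of which, leaving out the cell with the most UMIs, was chosen after seeing the data. Leaving out cells with 2 markers of another type removed 322 of 407 and 232 of 374 RPE cells, and Cldn12 in B6129PF1/J RPE was then at 0.0656 UMIs per 10,000. Those markers included the melanocyte gene Dct, found in 92.4% and 91.7% of RPE cells, so the filter did not single out mixed cells. No paired analysis was possible because the bulk tables hold no values per replicate, and for the same reason no replicate could be left out. Clusters were compared within each library, with no test.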

Other observations

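Cldn1 UMIs were found in 8 hematopoietic cells of each library, and the other genes of those cells were looked at after their values were seen. H2-Aa, an antigen-presenting MHC class II gene, was in 7 of the 8 cells of each library, against 71 of 98 and 78 of 119 hematopoietic cells without Cldn1. Its partner Cd74 was in 7 and 8 of the 8, against 81 of 98 and 98 of 119. C1qa, a complement gene of macrophages, was in 0 of 8 in each library, against 39 of 98 and 53 of 119, and Mrc1, a macrophage receptor, was in 0 of 8 in each, against 27 of 98 and 40 of 119. With 8 cells, 0 is no firm bound on the share of such cells. The Cldn1-positive cells held a median of 7781.5 and 9188.5 UMIs, against 4716.5 and 3845 in the others, and Rgr, an RPE gene, had UMIs in 3 of the 8 and 1 of the 8, against 30 of 98 and 28 of 119. The 1 C57BL/6J cell held 73 Rgr UMIs, so that the Cldn1-positive cells of that library were at 9.21 Rgr UMIs per 10,000 against 1.42 in the others.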
